A study of Mus musculus with 8 samples.

Results

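The genes of MHC class I antigen presentation were followed in whole livers of control mice and of mice with Zfp36l1 and Zfp36l2 targeted in hepatocytes. The targeted genes encode the RNA-binding proteins ZFP36L1 and ZFP36L2. The 10 class I genes are 3 heavy chains (H2-K1, H2-D1 and H2-Q10), the light chain B2m, the peptide transporter chains Tap1 and Tap2, the chaperone Tapbp, and the immunoproteasome subunits Psmb8, Psmb9 and Psmb10. They were chosen by name, and all 10 of 10 were found among the 22052 genes of the deposited table and passed the filter on low values that left 20055 genes. RNA was sequenced from adult male C57BL/6 mice aged 8 weeks, all of which received corn oil into the peritoneum. The 4 control mice had the genotype Zfp36l1 fl/fl/Zfp36l2 fl/fl and no Cre. The 4 double knockout (dKO) mice had Zfp36l1 fl/fl/Zfp36l2 fl/fl/Alb-Cre, in which the albumin promoter drives Cre recombinase in hepatocytes, so that both floxed alleles remain intact in cells that do not make Cre. No group carried Cre without the floxed alleles, and an effect of Cre itself cannot be told apart from that of the deletions. Values are normalised read counts, that is, gene read counts divided by 1 size factor per library.

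Class I molecules display peptides from proteins made inside the cell to CD8 T cells and natural killer cells. The proteasome cuts the proteins, with the immunoproteasome subunits taking the place of 3 constitutive catalytic subunits, and TAP1 and TAP2 together carry the peptides into the endoplasmic reticulum. There tapasin, the product of Tapbp, holds the transporter to a heavy chain bound to beta-2 microglobulin, the product of B2m, until a peptide fits. Interferons and NF-kappa B signalling are known inducers of these genes, and hepatocytes at rest show little class I on their surface. H2-K1 and H2-D1 encode the classical heavy chains of this strain, while H2-Q10 encodes a heavy chain that hepatocytes secrete into the blood.

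In the dKO livers 7 of the 10 genes were higher, B2m was lower, and H2-K1 and Tap1 did not pass the test (limma on log2(value + 0.5), Benjamini-Hochberg adjusted p under 0.05 over all genes tested). The median log2 change was 0.44 over the 10 genes and 0.03 over all genes tested. Changes were widespread in these livers, since 21.2% of all genes tested were called higher and 17.0% lower. The same 7 genes had no overlap between the groups, with every dKO liver above every control, and B2m had every dKO liver below every control. Over all genes tested 19.4% were separated upwards and 16.9% downwards in this way. When the log2 values were quantile normalised, 7 of the 10 genes were again higher and 0 lower, by the adjusted limma p and also at an unadjusted p under 0.05. That scaling moved the median log2 change of all genes by -0.11.

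**Figure D1:**
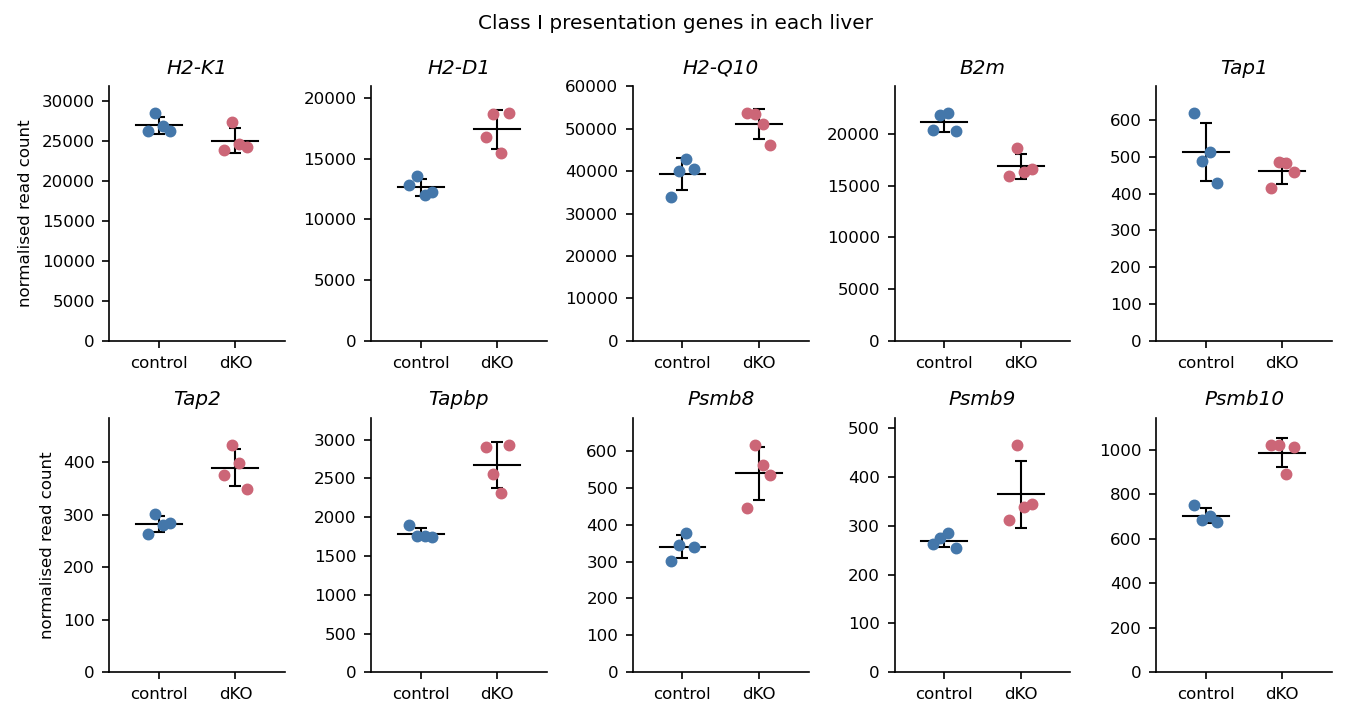
Normalised read counts (vertical axis, starting at 0) of the 10 class I genes in each of 4 control and 4 dKO livers; points are livers, long bars are means and error bars are SD. The groups are separate upwards for 7 genes and downwards for B2m, and overlap for H2-K1 and Tap1; the fall of B2m is not seen after quantile normalization (log2 change 0.01).

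The libraries held 15253827 to 19299556 reads. Mitochondrially encoded genes took 4.06% to 4.74% of control values and 3.09% to 3.70% of dKO values, and 18250 to 18580 genes had reads in controls against 18996 to 19296 in dKO livers; the part of these differences in the class I results was not tested. The targeted genes matched the labels: Zfp36l1 fell from 1370 ± 194 to 226 ± 27.6 normalised read counts (SD, n = 4 per group) and Zfp36l2 from 1584 ± 393 to 796 ± 94.4, with no overlap for either. Control 4 lay nearer to the dKO livers than the other controls on the first principal component (-43.3 against -76.5 to -67.7, with dKO livers at 57.5 to 68.9). Without control 4, 7 class I genes were again higher and 1 lower. The liver identity of the samples is seen in Alb, at 773160 ± 55865 in controls and 824048 ± 26104 in dKO livers.

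A whole liver contains many cell types, and fewer cells of a type and less RNA per cell cannot be told apart here. The marker counts below stand beside 21.2% higher and 17.0% lower among all genes tested. Of 12 leukocyte markers, 11 were higher in dKO livers (limma, median log2 change 1.48), none of them listed at 0 in all controls. With edgeR, with DESeq2 and at an unadjusted limma p under 0.05, 11, 10 and 12 were higher and 0 lower. Ptprc, the pan-leukocyte gene, rose from 215 ± 76.4 to 730 ± 172 (log2 change 1.82, limma adjusted p = 0.000147), and the summed level of the list was 3409 to 5256 in controls and 7602 to 9841 in dKO livers. Hepatocyte markers were 4 higher, 2 lower and 4 not past the test (median 0.08), with sums of 1433790 to 1504510 and 1577750 to 1729720. Of 8 cholangiocyte markers 7 were higher (median 1.48, sums 442 to 528 and 679 to 939), of 8 stellate cell markers 4 (0.87, 2007 to 4489 and 8275 to 10377) and of 8 endothelial markers 2 with 1 lower (0.08, 5907 to 7063 and 6659 to 8376). The endothelial counts were near the shares over all genes tested. The part of any of these cell types in the changes of the class I genes was not tested.

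Among the heavy chains, H2-D1 and H2-Q10 rose and H2-K1 did not pass the test. H2-D1 (ENSMUSG00000073411, 17:35262730-35267499 on the plus strand of GRCm38, 8 exons) stood at 12802, 13549, 12006 and 12217 normalised read counts in controls 1 to 4, and at 16754, 18675, 15439 and 18728 in dKO 1 to 4. The lowest dKO liver was above the highest control. The means were 12643 ± 691 and 17399 ± 1597 (SD, n = 4 each), a log2 change of 0.46 (SE 0.089, limma adjusted p = 0.0013).

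H2-Q10 (ENSMUSG00000067235, 17:35470089-35474563, plus strand) measured 34025, 40150, 42769 and 40412 in the controls, against 53653, 53574, 51209 and 46087 in the dKO livers. The groups did not overlap, and dKO 4 was nearest to the controls. The log2 change was 0.38 (SE 0.11, limma adjusted p = 0.0143), and the adjusted p reached 0.0463 at most over the 18 alternative settings. H2-Q10 has the largest read counts of the 10 genes, in both groups.

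H2-K1 (ENSMUSG00000061232, 17:33996017-34000347, minus strand) gave 26229, 28407, 26789 and 26167 in controls 1 to 4, against 23818, 27383, 24591 and 24239 in dKO 1 to 4. Only dKO 2 reached into the range of the controls. The log2 change was -0.11 (SE 0.087, limma adjusted p = 0.368), and it was 0.16 (adjusted p = 0.161) after quantile normalization, so that no direction can be given.

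The ratio of H2-D1 to H2-K1 compares both classical chains inside each liver and does not depend on the size factors. It was 0.488, 0.477, 0.448 and 0.467 in the control animals, against 0.703, 0.682, 0.628 and 0.773 in the knockouts. H2-D1 thus came closer to H2-K1 in every dKO liver, and the log2 ratio rose by 0.56 (SE 0.067, 2-sided exact permutation p = 0.0286 over 70 assignments, adjusted p = 0.0286 over 8 ratios). With 4 livers against 4, that p is the smallest the test can give. The ratio of H2-Q10 to H2-K1 rose as well, from between 1.30 and 1.60 in controls to between 1.90 and 2.25 in dKO livers (log2 difference 0.49, SE 0.086, exact permutation p = 0.0286, adjusted p = 0.0286). Shared sequence was counted over annotated transcripts, not over reads: 0.957% of the 100-base windows of H2-K1 transcripts, 3.59% of those of H2-D1 and 8.01% of those of H2-Q10 also occur in another gene.

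The promoters of the heavy chains are printed because 3 related genes with different changes share this region. In each stretch, which runs from a common upstream point to a TATA-like run of bases, capitals mark matches to the kappa B consensus (bound by NF-kappa B), TGACGC (the X2 box core) and CCAAT on either strand (the Y box core), as found by a search of the RefSeq promoter table on GRCm38.p6. Further motifs searched on both strands were GAAANNGAA, used here as the core of the interferon-stimulated response element (ISRE), and TTCNNNGAA, the gamma-activated site (GAS). The stretches lie at chr17:34000303-34000470 (minus strand) for H2-K1, chr17:35262911-35263077 (plus strand) for H2-D1 and chr17:35469901-35470070 (plus strand) for H2-Q10.
H2-K1: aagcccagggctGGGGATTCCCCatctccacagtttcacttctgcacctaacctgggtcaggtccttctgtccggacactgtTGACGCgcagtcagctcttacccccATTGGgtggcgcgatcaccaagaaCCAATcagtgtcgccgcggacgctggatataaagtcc
H2-D1: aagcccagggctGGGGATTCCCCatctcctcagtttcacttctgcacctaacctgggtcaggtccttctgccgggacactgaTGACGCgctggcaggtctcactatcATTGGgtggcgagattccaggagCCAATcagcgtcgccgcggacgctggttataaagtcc
H2-Q10: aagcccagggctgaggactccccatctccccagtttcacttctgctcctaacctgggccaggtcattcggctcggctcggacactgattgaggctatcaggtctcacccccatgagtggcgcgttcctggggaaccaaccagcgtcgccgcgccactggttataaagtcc

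The H2-K1 and H2-D1 stretches were identical at 89.29% of aligned columns, and both hold the same motif matches in the same order. Their kappa B stretch GGGGATTCCCC was the same in both. Any part of it in the changes of these genes was not tested. H2-Q10 was 80.46% identical to H2-K1 and 81.03% to H2-D1, and its window held no match to any of the 5 motifs. At the kappa B position it has GAGGACTCCCC, which differs from H2-K1 by G2A and T6C, counted from 1 at the 5′ end of the stretch. Matches are descriptions of letters and show nothing of what binds there. Of 32851 promoter windows of 300 bases, 4.505% held a kappa B match, 7.403% TGACGC, 37.41% CCAAT, 8.56% the ISRE core and 8.298% the GAS.

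The light chain B2m was lower in the dKO livers by the deposited scaling. B2m (ENSMUSG00000060802, 2:122147686-122153083, plus strand, 4 exons) measured 20348, 21789, 21968 and 20281 in controls 1 to 4, against 15950, 18573, 16282 and 16603 in dKO 1 to 4. Every dKO liver was below every control, and dKO 2 was the highest of its group. The log2 change was -0.33 (SE 0.084, limma adjusted p = 0.00806), which is -0.36 relative to the median of all genes. After quantile normalization it was 0.01 (adjusted p = 0.973), or 0.08 relative to that scaling's median, so the fall was not seen under every scaling; with TMM, edgeR and DESeq2 it was.

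The balance between B2m and its heavy chains is free of the size factors. The ratio of B2m to H2-K1 was 0.776, 0.767, 0.820 and 0.775 in the control animals, against 0.670, 0.678, 0.662 and 0.685 in the knockouts. The groups were apart and the dKO livers close together, with a log2 difference of -0.22 (SE 0.024, exact permutation p = 0.0286, adjusted p = 0.0286), and the difference was -0.15 after quantile normalization, also without overlap. H2-K1 and H2-D1 reads together were 1.88 ± 0.074 times those of B2m in controls and 2.52 ± 0.059 times in dKO livers (SD, n = 4). With H2-Q10 added, the ratio was 3.74 ± 0.123 and 5.56 ± 0.258. These are ratios of read counts between genes of different length, so only their difference between groups can be read.

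**Figure D2:**
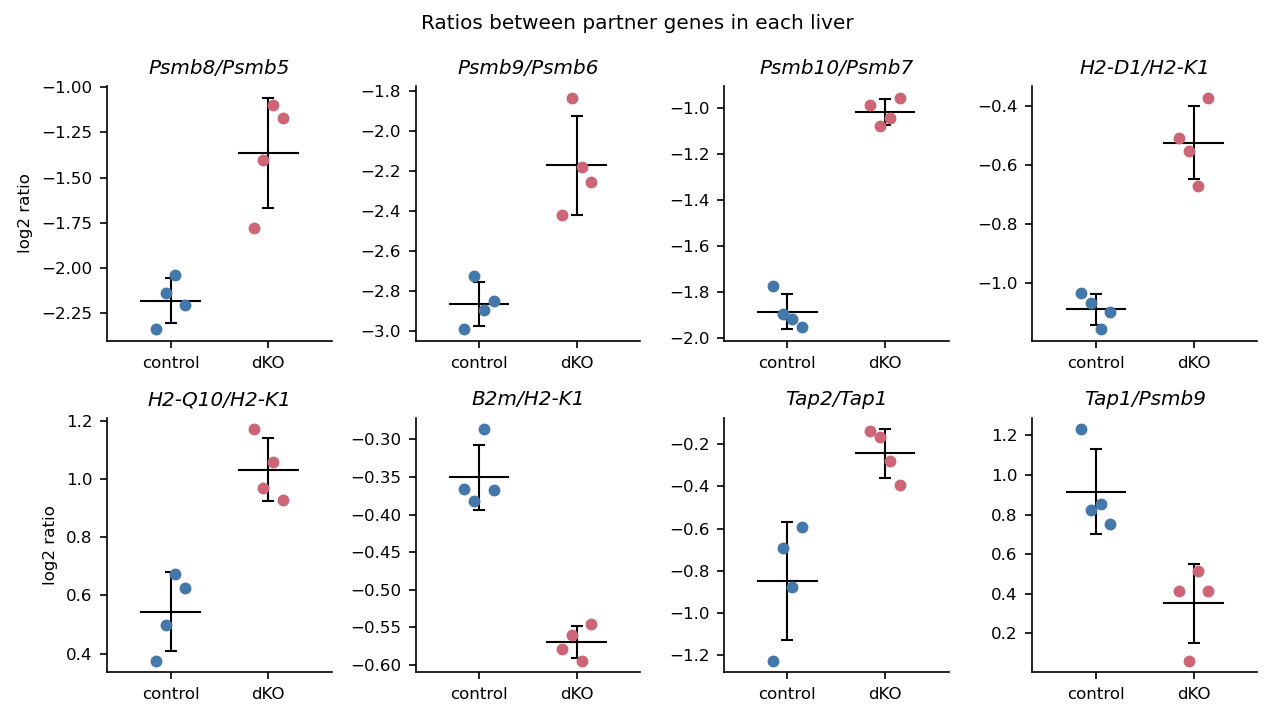
Log2 ratios of normalised read counts (vertical axis) for 8 pairs of class I genes and partners in 4 control and 4 dKO livers; points are livers, long bars are means and error bars are SD. All 8 ratios separate the groups, with B2m/H2-K1 and Tap1/Psmb9 lower and the other 6 higher in dKO livers.

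The window before B2m holds a kappa B match (126 bases before the start), as those of H2-K1 and H2-D1 do. It also holds a match to GAAANNGAA (139 bases before the start), while the windows of H2-K1, H2-D1 and H2-Q10 hold no match to this pattern. ISRE forms with other bases or other spacing were not searched, so an ISRE in the heavy chain windows is not excluded. Each heavy chain stretch printed above holds the run agtttcacttct, which does not match GAAANNGAA on either strand. The search therefore cannot show that B2m and the heavy chains differ in an ISRE. The B2m stretch is shown with its kappa B, GAAANNGAA and Y box core matches in capitals (chr2:122147537-122147686, plus strand, RefSeq, GRCm38.p6).
B2m: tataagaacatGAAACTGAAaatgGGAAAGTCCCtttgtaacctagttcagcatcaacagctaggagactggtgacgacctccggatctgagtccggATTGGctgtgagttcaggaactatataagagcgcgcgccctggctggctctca
Of the 9 class I genes with a window in the table, B2m alone matched GAAANNGAA. Among the other heavy chain genes searched, H2-T22 and H2-T23 matched it as well.

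**Figure D3:**
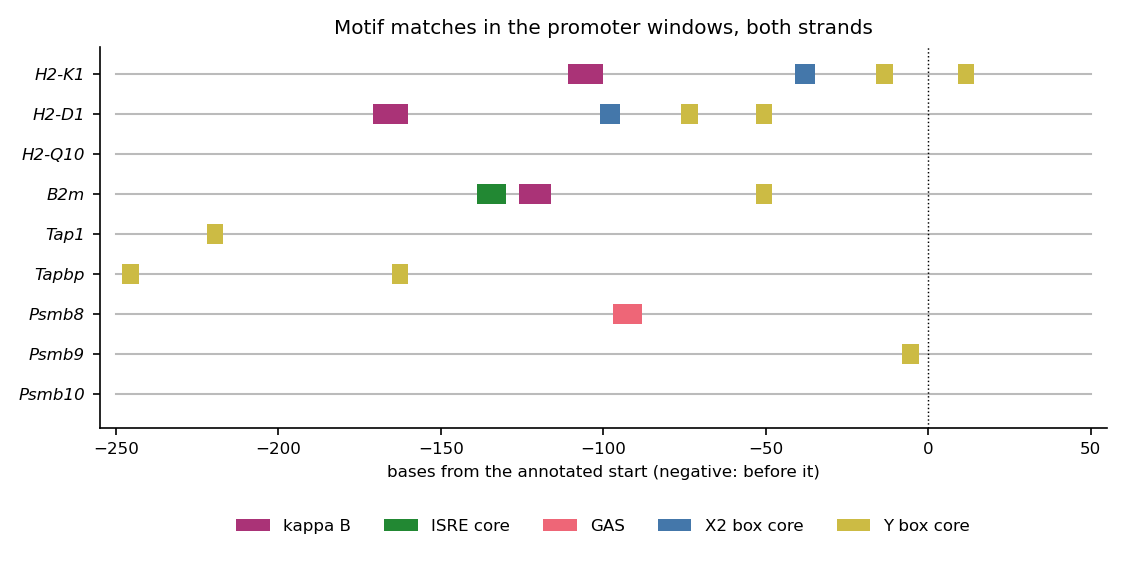
Positions of motif matches (coloured bars, both strands) in the promoter windows of 9 class I genes, in bases from the annotated start (horizontal axis; the dotted line is the start, for H2-K1 the first of its annotated starts in the table). Kappa B matches occur in H2-K1, H2-D1 and B2m, the GAS in Psmb8, and no match in H2-Q10 or Psmb10.

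The genes whose log2 values followed B2m most closely over the 8 livers, among 12724 genes compared, were Hist1h2bc (Pearson r 0.986), Prps1l3 (0.985), Tmem147 (0.983), Tsn (0.983) and Polr2b (0.978). Each fell in the dKO livers and, like B2m, was higher in dKO 2 than in the other dKO livers. The livers of both groups enter this r, so it includes the difference between groups.

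Peptide transport and loading showed an uneven pattern: Tap2 and Tapbp rose while Tap1 did not pass the test. Tap2 (ENSMUSG00000024339, 17:34203527-34216321, plus strand) gave 264, 302, 280 and 285 normalised read counts in controls and 376, 433, 398 and 349 in dKO livers. The groups were clearly apart, with a log2 change of 0.46 (SE 0.096, limma adjusted p = 0.00232). Tap1 (ENSMUSG00000037321, 17:34187553-34197225, plus strand), its partner in the transporter, gave 618, 487, 514 and 430 in controls and 414, 485, 483 and 458 in dKO livers. Control 1 was the highest Tap1 value and dKO 1 the lowest, the other livers overlapped, and the log2 change was -0.15 (SE 0.11, adjusted p = 0.334).

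The ratio of Tap2 to Tap1 was 0.427, 0.619, 0.544 and 0.663 in controls and 0.908, 0.892, 0.824 and 0.762 in dKO livers. It was higher in all 4 dKO livers (log2 difference 0.60, SE 0.15, exact permutation p = 0.0286, adjusted p = 0.0286). The call was lost without dKO 1 (log2 difference 0.57) or dKO 2 (0.58), where the adjusted p was 0.0571.

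Tapbp (ENSMUSG00000024308, 17:33915899-33929292, plus strand) gave 1897, 1760, 1763 and 1742 in controls and 2903, 2555, 2310 and 2934 in dKO livers. All dKO livers were above all controls, with dKO 1 and dKO 4 the highest. The log2 change of 0.57 (SE 0.085, limma adjusted p = 0.000186) had the smallest adjusted p of the 10 genes. Exons of Tapbp overlap those of Gm19412 on the other strand over 904 bases and of Zbtb22 over 149 bases, those of Tap2 overlap Gm15821 over 533 and Gm20496 over 165 bases, and those of Psmb8 overlap Gm20496 over 498 bases. No source used here gives the strand setting of the counting, so reads of such stretches cannot be told apart.

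Of 16 other genes of peptide trimming and loading, 1 was higher, 4 were lower and 11 did not pass the test. Their median log2 change was -0.10. For comparison, 21.2% of all genes tested were higher, 17.0% were lower and the others did not pass the test. The lower genes were Erap1, the aminopeptidase that trims peptides in the endoplasmic reticulum (1723 ± 162 to 1332 ± 44.7, log2 change -0.37, adjusted p = 0.00288), the cytosolic peptidase Blmh (-0.38, 0.00811), the glucosidase subunit Ganab (-0.34, 0.00122) and Bcap31, a cargo receptor of that compartment (-0.34, 0.00251). The higher gene, named after its value was seen, was Sec61a1, a subunit of the translocation channel (log2 change 0.26, limma adjusted p = 0.0192), and its call was lost without dKO 4 (0.20, 0.0595). Calreticulin (Calr, 10826 ± 915 to 10935 ± 1320) and the tapasin relative Tapbpl (463 ± 36.5 to 471 ± 29.5), also named afterwards, did not pass the test. After quantile normalization the list had 2 higher and 4 lower genes and a median log2 change of 0.01.

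All 3 immunoproteasome subunits rose, and no constitutive core gene did. Psmb8 (ENSMUSG00000024338, 17:34197721-34201454, plus strand), the subunit LMP7, gave 301, 345, 378 and 339 in controls and 443, 616, 561 and 534 in dKO livers. The lowest dKO liver, dKO 1, was still above the highest control. The log2 change was 0.66 (SE 0.11, limma adjusted p = 0.000545), the largest of the 10 genes.

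Psmb10 (ENSMUSG00000031897, 8:105935735-105938444, minus strand), the subunit MECL-1, gave 753, 684, 703 and 676 in controls and 1022, 1023, 892 and 1013 in dKO livers. Apart from dKO 3, the dKO livers were nearly equal, and all were above the controls. The log2 change was 0.49 (SE 0.077, limma adjusted p = 0.000305). Psmb9 (ENSMUSG00000096727, 17:34181987-34187764, minus strand), the subunit LMP2, gave 263, 275, 284 and 255 in controls and 311, 465, 337 and 344 in dKO livers. The high value of dKO 2 widened its group, but no dKO liver overlapped the controls (log2 change 0.42, SE 0.12, limma adjusted p = 0.0167, at most 0.0444 over the alternatives).

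Of 17 genes of the constitutive core and its assembly, 0 were higher, 13 lower and 4 did not pass the test. Beside this, 21.2% of all genes tested were higher and 17.0% lower. The list had a median log2 change of -0.34. At an unadjusted limma p under 0.05, by edgeR and by DESeq2 the count of higher genes was again 0. Psma1 of the outer ring fell from 1612 ± 93.3 to 1118 ± 97.4 (log2 change -0.53, limma adjusted p = 0.000211), and Psma4 (-0.43, 0.000291) and Psma6 (-0.41, 0.000498) fell with it. Among the catalytic subunits that the immunoproteasome replaces, Psmb7 fell from 2602 ± 46.3 to 1998 ± 135 (-0.38, 0.000793) and Psmb6 from 1967 ± 156 to 1623 ± 63.5 (-0.27, 0.0114). Psmb5 went from 1540 ± 19.8 to 1390 ± 218 and did not pass the test (-0.16, adjusted p = 0.232). After quantile normalization the list had 0 higher and 12 lower. Of the proteasome activators, Psme4 fell (-0.60, 0.000236), while Psme1 and Psme2, which encode the interferon-inducible PA28 cap, went from 1598 ± 95.0 to 1690 ± 94.4 and from 691 ± 98.0 to 632 ± 218, did not pass the test, and were named after their values were seen.

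**Figure D4:**
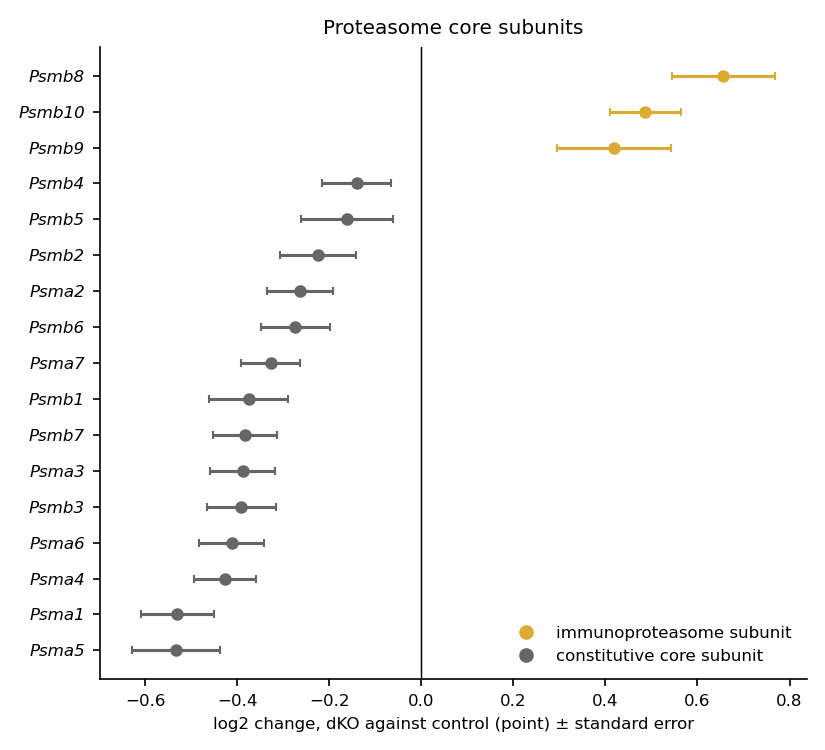
Log2 change of normalised read counts in dKO against control livers (horizontal axis; point and standard error from limma, 4 livers per group) for 3 immunoproteasome subunits and 14 constitutive core subunits. The immunoproteasome points lie between 0.42 and 0.66 and the constitutive points between -0.53 and -0.14.

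Set against the subunit that each replaces, the shift was seen in every dKO liver. Psmb10 and Psmb9 lay above all controls in every dKO liver, and Psmb7 and Psmb6 lay below all controls. The separation and the p of Psmb10 to Psmb7 and of Psmb9 to Psmb6 therefore follow from the single genes and add no support. The ratio of Psmb10 to Psmb7 was 0.292, 0.268, 0.264 and 0.258 in controls and 0.505, 0.473, 0.485 and 0.516 in dKO livers. These groups were far apart for their spread, with a log2 difference of 0.87 (SE 0.048, exact permutation p = 0.0286, adjusted p = 0.0286). The ratio of Psmb8 to Psmb5 was 0.198, 0.227, 0.243 and 0.217 in controls and 0.291, 0.379, 0.466 and 0.444 in dKO livers (log2 difference 0.82, SE 0.17, exact permutation p = 0.0286, adjusted p = 0.0286). The ratio of Psmb9 to Psmb6 was 0.126, 0.151, 0.135 and 0.139 in controls and 0.187, 0.281, 0.221 and 0.210 in dKO livers (log2 difference 0.69, SE 0.14, exact permutation p = 0.0286, adjusted p = 0.0286). In both, dKO 1 was the dKO liver nearest to the controls. The call for Psmb8 to Psmb5 was lost on leaving out control 1, 2, 3 or 4, where the log2 difference was 0.76, 0.83, 0.86 and 0.81 and the adjusted exact permutation p was 0.0571.

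Tap1 and Psmb9 are transcribed away from each other, in the RefSeq promoter table from starts 226 bases apart. The bases between these starts are shown because the neighbours differed in their change. The interval is chr17:34187330-34187556 on the plus strand, the strand of Tap1 (RefSeq, GRCm38.p6), and capitals mark its single motif match, a Y box core.
Tap1 and Psmb9: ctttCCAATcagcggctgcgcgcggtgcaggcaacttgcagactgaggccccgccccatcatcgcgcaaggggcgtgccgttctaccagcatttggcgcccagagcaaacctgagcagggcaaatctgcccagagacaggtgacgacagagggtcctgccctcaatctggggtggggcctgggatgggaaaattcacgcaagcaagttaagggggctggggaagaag
Tap1 reads per Psmb9 read were 2.35, 1.77, 1.81 and 1.68 in controls and 1.33, 1.04, 1.43 and 1.33 in dKO livers. The ratio was lower in all dKO livers (log2 difference -0.56, SE 0.15, exact permutation p = 0.0286, adjusted p = 0.0286). The gene positions given above come from another annotation, in which Psmb9 reaches to 34187764, past the first base of Tap1 at 34187553. There, exons of the pair overlap on opposite strands over 212 bases, or 3.87% of the exonic bases of Tap1 and 5.79% of those of Psmb9.

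Psmb8, next to them, had the single GAS match among the 9 genes with a window, 97 bases before its start, shown here in capitals within 60 bases (chr17:34198075-34198134, plus strand, RefSeq, GRCm38.p6).
Psmb8: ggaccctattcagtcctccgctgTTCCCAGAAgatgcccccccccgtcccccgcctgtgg
The windows of Psmb10 and H2-Q10 held no match to any of the 5 motifs. Any part of such matches in the changes of these genes was not tested. Windows were set by the RefSeq starts, which can lie away from the gene positions given above. That of Tapbp (chr17:33919228-33919527) lies inside its gene position, which begins at 33915899. A motif near a start that is not in the RefSeq promoter table would be missed.

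ZFP36L1 and ZFP36L2 destabilise mRNAs through AU-rich stretches of their 3′ untranslated regions, so these regions were searched for TATTTAT, a binding heptamer of the family. Of the 10 class I genes, 0 held it in any annotated coding transcript, against 29.93% of 15517 genes tested that have such a region. The longest such region of each class I gene ran from 58 bases (Psmb10) to 1144 bases (Tapbp). Short regions leave few places for a match, and the share over all genes was not matched for length, so no depletion can be read from it. No match says only that these letters are not in the annotated regions.

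Levels of different genes can be compared only per length. Per kb of the longest coding mRNA, the controls gave B2m 24531 ± 1054 normalised read counts, H2-Q10 19758 ± 1875, H2-K1 16614 ± 645 and H2-D1 6015 ± 329 (SD, n = 4). The values of H2-Q10 and H2-K1 overlapped, while the other neighbours in this order did not. The loading and proteasome genes followed far below, with Tapbp at 618 ± 24.7, Psmb10 at 537 ± 26.2, Psmb8 at 209 ± 19.3, Psmb9 at 199 ± 9.5, Tap1 at 174 ± 26.7 and Tap2 at 82.1 ± 4.5. Psmb8, Psmb9 and Tap1 overlapped in the controls.

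In dKO livers H2-Q10 came first per kb, at 25681 ± 1782, above B2m at 19595 ± 1370, H2-K1 at 15446 ± 998 and H2-D1 at 8277 ± 760. None of these neighbours overlapped. Tapbp stood at 923 ± 103, Psmb10 at 753 ± 48.7, Psmb8 at 331 ± 44.2, Psmb9 at 269 ± 50.9, Tap1 at 156 ± 11.2 and Tap2 at 113 ± 10.3, and only Psmb8 and Psmb9 overlapped. The order at the top depends on the length used: per kb of all annotated exons, B2m was first in both groups (24531 and 19595), while H2-Q10 was at 9048 ± 859 in the control group and 11760 ± 816 in the dKO group.

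The other heavy chain genes of the class I family showed a much larger change in a few nonclassical members. Of 17 tested, 4 were higher, 4 lower and 9 did not pass the test, beside 21.2% higher and 17.0% lower among all genes tested. The median log2 change of the list was 0.15, and 0.02 after quantile normalization. H2-Q1, a nonclassical gene of the Q region, gave 101, 344, 170 and 154 in controls and 1471, 1752, 1740 and 1521 in dKO livers. The lowest dKO liver was far above the highest control, and the dKO mean was 8.43 times that of controls (limma log2 change 3.21, SE 0.27, adjusted p = 1.96e-06). Of its 100-base windows 8.05% also occur in another gene, most often H2-Q2, and 3.28% of the windows of H2-D1 also occur in H2-Q1.

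H2-Q2 (6.26 ± 3.76 to 30.9 ± 8.47, log2 change 2.36) and H2-M3, which presents formylated peptides (53.3 ± 4.84 to 87.9 ± 14.3, log2 change 0.71), were also higher and were named after their values were seen. The call of H2-M3 was lost after quantile normalization (log2 change 0.36, limma adjusted p = 0.117), and the list then had 4 higher and 2 lower. H2-M2 was higher too, at very low levels: it was listed at 0 in 3 controls and at 2.05 in control 1, against 9.05, 7.40, 17.9 and 7.45 in dKO livers. The lower members were relatives with other tasks. They were the fat-mobilising secreted protein Azgp1 (22373 ± 896 to 15889 ± 441, log2 change -0.49, limma adjusted p = 0.000281, and 0.0822 after quantile normalization), the IgG receptor Fcgrt (-0.46, 0.00115) and, named afterwards, the lipid-presenting Cd1d1 (-0.42, 0.0042, and 0.173 after quantile normalization) and the iron regulator Hfe (-0.31, 0.0121). The better expressed H2-T23, which encodes Qa-1 (4161 ± 61.8 to 4608 ± 205), and H2-Q7 (986 ± 111 to 918 ± 163), likewise named afterwards, did not pass the test. H2-T23 passed it with DESeq2 (log2 change 0.15, adjusted p = 0.0468) and after quantile normalization (0.32, 0.00156).

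**Figure D5:**
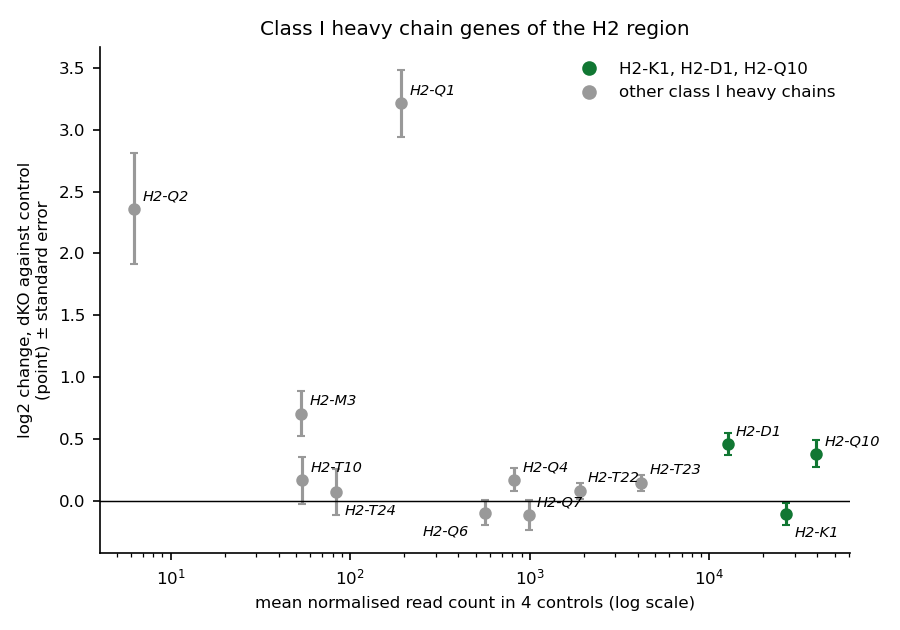
Log2 change in dKO against control livers (vertical axis; point and standard error from limma) against the mean normalised read count in 4 controls (horizontal axis, log scale) for class I heavy chain genes with H2 symbols and a control mean of 5 or more. H2-Q1 and H2-Q2 lie highest, H2-D1 and H2-Q10 at 0.46 and 0.38, and H2-K1 at -0.11 (0.16 after quantile normalization).

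Genes that regulate class I expression moved in both directions. Of 24 tested, 9 were higher, 5 lower and 10 did not pass the test, with a median log2 change of 0.20. Among all genes tested the shares were 21.2% higher and 17.0% lower. Usp18, an interferon-stimulated regulator of the type I receptor, rose from 183 ± 20.9 to 508 ± 22.2 (log2 change 1.47, limma adjusted p = 4.25e-07). Irf7 (1.08, 1.99e-06), Irf8 (1.56, 1.34e-06) and the interferon gamma receptor chain Ifngr1 (1.00, 4.15e-06) rose as well. Ciita (2.29, 3.23e-05), Ifngr2 (0.86, 5.32e-06) and the NF-kappa B subunits Nfkb1 (0.45, 0.00168) and Rela (0.30, 0.00526), named after their values were seen, were also higher. The 5 lower genes, named after their values were seen, were Irf2 (log2 change -0.61), Rfxank (-0.52), Irf3 (-0.41), Rfxap (-0.34) and Tyk2 (-0.29). The limma adjusted p of Rfxap was 0.0405 and reached 0.123 over the alternative settings. The class I transactivator Nlrc5 gave 620, 524, 490 and 714 in controls and 774, 675, 776 and 756 in dKO livers. Its groups overlapped through control 4, and its call (log2 change 0.36, limma adjusted p = 0.0251) was lost on leaving out control 2, control 3, dKO 1, dKO 3 or dKO 4 in turn, with log2 changes of 0.31, 0.28, 0.34, 0.34 and 0.35 and an adjusted p of up to 0.0784. Irf1 (563 ± 78.9 to 652 ± 73.0) did not pass the test.

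Most receptor and effector genes of the cells that read class I did not pass the test. Neither did 12401 of all 20055 genes tested, of which 21.2% were higher and 17.0% lower. Of 13 receptor and effector genes of T, natural killer and myeloid cells, 2 were higher, 0 lower and 11 did not pass the test; with edgeR 3 were higher, and 0 were lower with edgeR, with DESeq2 or at an unadjusted limma p under 0.05. The higher genes were the natural killer receptor chain Klrd1 (6.06 ± 3.84 to 26.3 ± 6.51, log2 change 2.30, limma adjusted p = 0.0057) and Pirb, an inhibitory class I receptor of myeloid and B cells (108 ± 91.1 to 338 ± 39.2, 2.01, 0.00253). Cd8a, named after its value was seen, went from 4.71 ± 3.75 to 11.0 ± 4.46 and did not pass the test.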

How the data were processed

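Liver RNA of 8 mice was measured, 4 per group, and the labels number the mice, so each library is a separate animal. The submitters' processing notes name fastp, HISAT2 2.0.5, featureCounts 1.5.0-p3, DESeq2 and build mm10. The authors deposited 1 table of signal values, gene read counts divided by 1 size factor per library, as the deposited values themselves show, although its name says FPKM. Dividing each library by its smallest step left 100% of entries within 0.001 of whole reads; for dKO 1 the step is 1.01, too close to 1 to be told from rounding by an automatic check. Gene symbols were found for 21796 of 22052 identifiers.

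Values were tested as log2(value + 0.5) for genes with a mean of 0.5 or more, with limma 3.58.1 (eBayes with trend, R 4.3.3), 2-sided, group alone in the model, Benjamini-Hochberg over all 20055 genes, threshold 0.05. The script was tested on simulated data. Ratios had a 2-sided exact permutation test, adjusted over 8. The 18 alternative fits covered pseudocounts, filters, scalings, edgeR 4.0.16 and DESeq2 1.42.0 on recovered reads, robust variances, a replicate block and each liver left out; quantile normalization of the ratios was added after seeing the data. edgeR called 4018 genes higher and 3512 lower. A listed 0 is below a floor of 3 counts, or 2.55 to 3.43 normalised read counts, counting error only.

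The genes and lists were chosen with earlier results of these data known. Named are the 10 genes, Zfp36l1 and Zfp36l2, from each list the called genes of smallest adjusted p (4 at most), genes fixed by name (1 of them is not reported here), and the 5 named genes outside the lists most like B2m; others are marked where they appear. Of the listed genes, H2-Q9, H2-T3, H2-T9, H2-M9, H2-M10.1 and Lilrb4a were not analysed here.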

Additional observations from a re-analysis of the deposited data

Results flagged for a closer look

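In 17 of 162 groups of 4 livers checked, 1 liver lay far from the other 3 for the range of its group; chance alone gives this in about 1 of 20 groups. Among the class I genes, Tapbp was 1896.59 normalised read counts in control 1 (other controls 1742 to 1763), Psmb10 was 891.631 in dKO 3 (others 1013 to 1023), and the ratio of B2m to H2-K1 was 0.820059 in control 3 (others 0.767 to 0.776). Of the targeted genes, Zfp36l1 was 267.218 in dKO 4 (others 209 to 214) and Zfp36l2 was 997.114 in control 3 (others 1722 to 1820). In the class I and loading lists, H2-M2 was 2.0537 in control 1, with the other controls at 0, and 17.8837 in dKO 3 (others 7.40 to 9.05), Blmh was 659.236 in control 1 (others 834 to 868), and Cd1d1 was 7061.66 in control 2 (others 6486 to 6565) and 3988.07 in dKO 3 (others 5266 to 5416). Among leukocyte markers, Laptm5 was 1593.07 (others 1194 to 1248) and Rac2 382.671 (others 312 to 320) in dKO 4, where the endothelial marker Clec4g was 867.761 (others 601 to 641). Of the remaining markers, Cldn4 was 4.57464 in control 4, with the other controls at 0, Col1a1 was 1798.98 in control 4 (others 212 to 439) and 4765.57 in dKO 1 (others 6348 to 6582), and Des was 158.969 in control 4 (others 76.9 to 90.5).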

How the results depend on the processing

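Over 18 alternatives the 7 class I genes called higher kept direction and call, and Tap1 stayed uncalled. After quantile normalization the count of class I genes called lower was 0, B2m was at 0.0051 and H2-K1 at 0.159 on the log2 scale, and over all genes 3638 were higher and 4312 lower, against 4244 and 3410; the cause was not tested. The mouse numbers are not said to pair the livers and same-numbered livers correlated at -0.069 to 0.077 in their deviations. With the number as a replicate block the 8 ratios kept their values (0.817 for Psmb8/Psmb5, 0.693 for Psmb9/Psmb6, 0.870 for Psmb10/Psmb7, 0.564 for H2-D1/H2-K1, 0.487 for H2-Q10/H2-K1, -0.219 for B2m/H2-K1, 0.603 for Tap2/Tap1 and -0.564 for Tap1/Psmb9) at p = 0.125, the smallest an exact test of 4 pairs can give, and 4021 genes were higher and 3112 lower. Leaving out each liver in turn, Psmb8/Psmb5 ranged from 0.730 to 0.956 and Tap2/Tap1 from 0.477 to 0.688; the adjusted exact permutation p of the first was 0.0571 without any 1 control, that of the second without dKO 1 or dKO 2. Near 0, signs changed for Calr (-0.0047 with TMM, -0.00094 with edgeR, leave-one-out range -0.0685 to 0.0683), Tapbpl (leave-one-out range -0.0143 to 0.0733) and Psme2 (-0.364 to 0.0707). Calls were lost for Nlrc5 and Clec4g (5 livers left out each), Sec61a1 (without dKO 4) and Azgp1, Ahsg, H2-M3 and Cd1d1 (quantile normalization). These are 15 cases in all, and H2-T23 gained a call in 2. The lower class I regulators and Ciita, Ifngr2, Nfkb1 and Rela are not part of these counts. Depth limits the genes listed at 0 and the receptor genes of few reads.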
